A study of Mus musculus with 9 samples.

Results

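The 10 genes described here are the Notch ligands Dll1, Dll3, Dll4, Jag1 and Jag2, the receptors Notch1, Notch2, Notch3 and Notch4, and Hes1, a target gene of the pathway. They were chosen by their role, by gene name, among the 29069 genes of the table, with earlier results of these data known. The choice was thus not independent of the data. Of the 10, 9, all except Dll4, exceeded the minimum mean of 5 normalised counts at which a gene entered the test. Total RNA of mESC of the D3 line, a mouse embryonic stem cell line grown here without a feeder layer, was sequenced after 24 h of culture in each of 3 media (n = 3 per medium). GS, the ground state medium and the starting condition, was serum-free NDiff N2B27 with 1 µM PD0325901, which inhibits MEK, 3 µM CHIR99021, which inhibits GSK-3, and 20 ng/mL LIF. DM, the medium of spontaneous differentiation, was DMEM with 10% FBS and held neither inhibitor and no LIF. NO was DM with 250 µM of the nitric oxide donor DETA/NO, and is called mesendodermal medium in the labels. DM and GS thus differed in the base medium, serum, both inhibitors and LIF at once, whereas NO and DM differed in the donor alone. All samples came from 1 cell line.

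Notch signalling passes between touching cells. A ligand of the Delta-like (Dll) or Jagged (Jag) family on one cell binds a Notch receptor on its neighbour, whose intracellular part is then cut free, enters the nucleus and, with the DNA-binding protein RBPJ, turns on genes of the Hes and Hey families, which are themselves repressors. In embryonic stem cells and early embryos the pathway is known for its part in leaving the pluripotent state and in the choice and segmentation of the mesoderm.

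In NO medium, the ligand Jag2 and the receptor Notch3 rose above both other media. The receptor Notch4 was highest in DM and lower in NO than in DM, and NO and GS were not distinguished for it. Dll1, nearly unexpressed in GS, was higher in DM and in NO. Hes1 was higher in NO than in DM by less than 2-fold. The ligand Jag1 and the receptor Notch2, both well expressed, passed no test. Of the 9 tested members, 6 differed among the 3 media (moderated F test in limma, Benjamini-Hochberg adjusted p under 0.05), namely Notch3, Jag2, Dll1, Notch4, Hes1 and Notch1, where 23.3% of all tested genes did. NO and DM samples of 1 number varied jointly to a small degree, with no such link to GS. With the replicate number as a block over all 9 samples, Hes1 (adjusted p = 0.0511) and Notch1 (0.06) missed the threshold and the other 4 passed. Without DM replicate 2, Notch4 (0.0554), Hes1 (0.0609) and Notch1 (0.0676) missed it and 3 passed. A gene was called higher or lower between 2 media at an adjusted p under 0.05 and a fold change of at least 2, and all adjusted p-values below are from limma over the 18156 tested genes. In NO against DM, the adjusted p of Jag2 stayed under 0.05 in only 3 of the 9 fits without 1 library, and that of Notch3 in all 9.

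Depth and the standing of the libraries bear on these values. The deposited values are read counts divided by a size factor and rounded, called normalised counts below. The rounding pattern put the reads counted in genes at an estimated 14302054 to 27061091 per sample, so that 1 read was worth 0.701 to 1.323 normalised counts. This number leaves out reads not assigned to genes and is lower than the raw read number that the paper gives. NO replicate 2 stood apart from the other 8 samples: its first principal component score was 131.2, against 25.9 and 67.1 in the other NO samples and -49.1 to -26 in GS and DM, and it held the highest value of the 9 samples in 28.8% and the lowest in 23.9% of the tested genes. Among the 9 tested members it was highest in 6 and lowest in 2. All 8 listed markers of pluripotent cells were expressed in every medium, summing to 79463 to 83412 normalised counts for GS, 78645 to 88937 for DM and 47015 to 79008 for NO, the lowest of them in NO replicate 2. Summed over 7 trophoblast markers, GS samples reached 661 to 689, DM samples 186 to 251 and NO samples 361 to 1244, the highest of them in NO replicate 2. Most of that sum was Krt7 (484) and Tfap2c (426), and Hand1 (111) and Gata3 (114) were also highest in that library. Other markers of the list went the other way. Cdx2 was lower in NO (3, 14 and 5) than in GS (54, 75 and 46), as was Eomes (90, 91 and 118 against 229, 308 and 298). Elf5 lay at 2 to 13 in all samples. Endothelial markers, which matter here because vessels express several members, summed to 3028 to 4162 in GS, 2562 to 2822 in DM and 3539 to 5472 in NO over 7 genes, most of it Pecam1, which pluripotent cells also express. Of the defining ones, Cdh5 lay at 0 to 4 normalised counts in all samples. Some were higher in the NO samples, with Tek at 75 to 96 (GS), 145 to 169 (DM) and 557, 1871 and 987 (NO), Tie1 at 2 to 5 in GS and DM and 6, 19 and 25 in NO, and Erg at 1 to 2 in GS and DM and 3, 13 and 9 in NO, while Flt1 lay at 22 to 34 in all samples but NO replicate 2 (84). Kdr and Pecam1 overlapped between GS and NO and were lower in DM. Kdr lay at 62, 86 and 71 (GS), 50, 44 and 30 (DM) and 77, 92 and 72 (NO). Pecam1 lay at 3988, 2809 and 3388 (GS) and 2868, 3389 and 2995 (NO). Primitive endoderm markers summed to 7550 to 8354 (GS), 2929 to 3607 (DM) and 3583 to 4602 (NO), most of it Lama1, whereas Gata6 and Pdgfra were highest in NO replicate 2, at 234 and 170. Mesoderm markers summed to 474 to 571 (GS), 219 to 253 (DM) and 230 to 331 (NO), most of it Eomes and T in GS. The listed genes moved in both directions. T lay at 137, 183 and 131 (GS), 10, 1 and 0 (DM) and 8, 28 and 22 (NO). Eomes lay at 229, 308 and 298 (GS), 111, 170 and 122 (DM) and 90, 91 and 118 (NO). Tbx6 was lower in NO (49, 32 and 34) than in GS (67, 52 and 69). Mesp2, in contrast, lay at 11 to 26 in GS and DM and at 59, 144 and 89 in NO, and Mesp1 at 4, 23 and 9 in NO against 0 to 7 elsewhere. The part of these cell types in the results below was not tested, and in bulk RNA fewer cells of a type and less RNA per cell cannot be told apart.

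Upstream sequence is shown for Dll1, Notch3 and Notch4, the called genes whose 250 bases before the RefSeq start (GRCm38.p6) lay wholly or mostly outside the gene as annotated in GENCODE. Such a window was found for 9 of the 10 members, all except Hes1, and the windows of Dll3, Jag2 and Notch1, like that of a further start site of Dll1, lay inside their genes. Capitals mark matches, on either strand, to a ZEB1 box (CACCTG or TACCTG, held by 25.4% of all 32851 windows of this length), ZEB1 being a repressor that the study follows, or to a HES class C site (CACGCG, in 7.6%). The RBPJ core TGGGAA, present in 21.6% of the windows, was in none of the 9 members' windows, and the motifs do not overlap one another in the sequences shown.
Dll1, chr17:15376933-15377182, minus strand: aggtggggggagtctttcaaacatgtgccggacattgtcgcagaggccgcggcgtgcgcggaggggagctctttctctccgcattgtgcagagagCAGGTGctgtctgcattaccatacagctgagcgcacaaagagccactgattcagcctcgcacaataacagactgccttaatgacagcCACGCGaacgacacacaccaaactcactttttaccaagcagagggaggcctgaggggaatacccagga
Notch3, chr17:32166891-32167140, minus strand: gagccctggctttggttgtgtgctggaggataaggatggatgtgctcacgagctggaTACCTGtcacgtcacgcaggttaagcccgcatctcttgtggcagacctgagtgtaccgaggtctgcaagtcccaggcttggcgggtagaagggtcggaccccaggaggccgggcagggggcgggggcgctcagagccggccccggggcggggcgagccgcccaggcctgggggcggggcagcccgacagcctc
Notch4, chr17:34564045-34564267, plus strand: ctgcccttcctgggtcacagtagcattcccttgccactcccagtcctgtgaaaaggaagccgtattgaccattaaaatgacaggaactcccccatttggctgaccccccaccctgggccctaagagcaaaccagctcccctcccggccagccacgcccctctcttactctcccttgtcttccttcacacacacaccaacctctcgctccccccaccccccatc
Dll1 thus held a ZEB1 box 155 bases and a HES class C site 68 bases before its start, Notch3 held a ZEB1 box 193 bases before its start, and the 223 bases of Notch4 held neither. Outside the printed sequences, a ZEB1 box stood before the RefSeq starts of Dll3 and Jag1, that of Dll3 lying inside the annotated gene. A HES class C site stood before Dll4, Jag1 and Notch2. These matches describe letters and were not tested here as binding sites. For Dll1, the paper itself reported Zeb1 at the promoter in GS by ChIP, no longer detected in DM or NO. Where that ChIP signal lay relative to the window shown was not examined here.

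**Figure D1:**
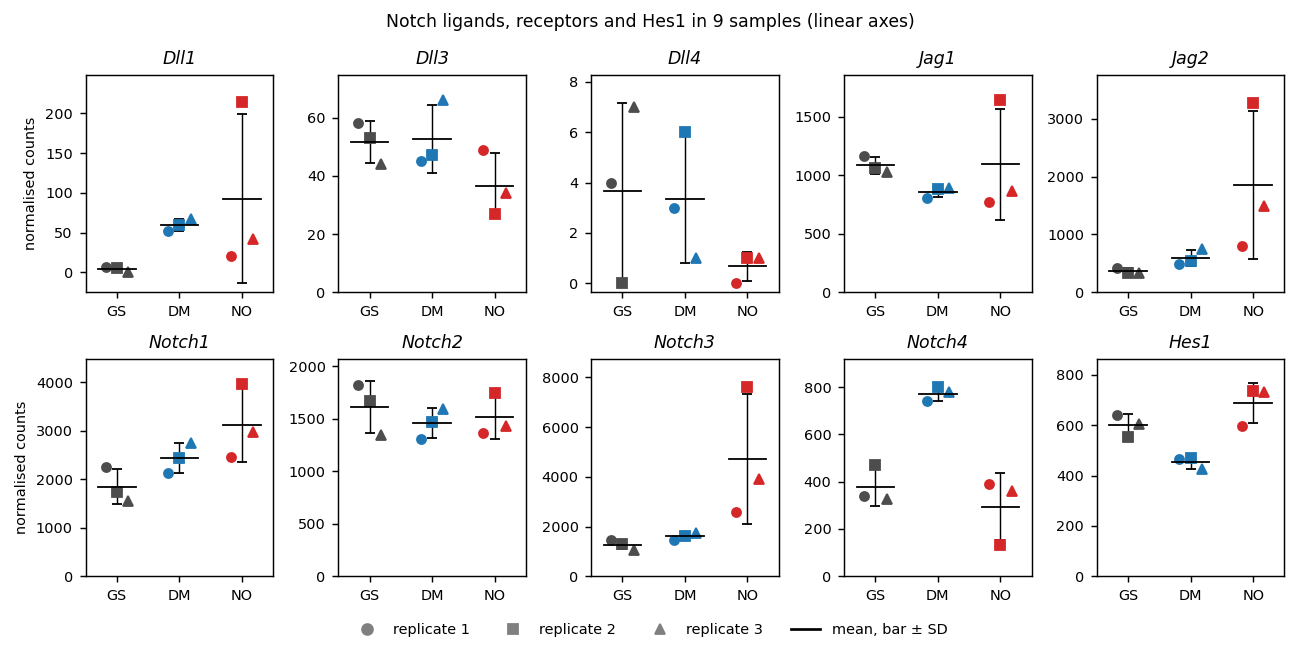
Normalised counts (linear axes from 0 or below) of the 10 members in GS, DM and NO; each point is 1 sample, its shape the replicate number, with the mean as a line and the SD as a bar. In NO, replicate 2 (square) is far above the other samples for Jag2 (3278) and Notch3 (7632) and below them for Notch4 (132).

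Among the ligands, Jag2 (chr12:112907819-112929776, minus strand), a Jagged family ligand, gave normalised counts of 422, 327 and 327 (GS), 490, 542 and 752 (DM) and 800, 3278 and 1494 (NO). No NO sample overlapped DM or GS, and no DM sample overlapped GS. The means were 358.7 ± 54.8, 594.7 ± 139 and 1857 ± 1280 (SD, n = 3). Jag2 was 4.42-fold higher in NO than in GS (log2 fold change 2.14 ± 0.39 SE, limma adjusted p = 0.00344) and 2.69-fold higher in NO than in DM (1.43 ± 0.39, adjusted p = 0.032). In DM against GS the log2 fold change was 0.71 ± 0.39 (adjusted p = 0.339). The call against GS held without each library in turn, at 1.62 without NO replicate 2. The call against DM was lost without GS replicate 2 (adjusted p = 0.0515), GS replicate 3 (0.0505), DM replicate 1 (0.1), DM replicate 2 (0.0897), NO replicate 2 (0.0606, with a log2 fold change of 0.90) or NO replicate 3 (0.0754), and in a fit of the 6 DM and NO samples alone (0.0816).

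Jag1 (chr2:137081456-137116644, minus strand), the other Jagged ligand, stood at normalised counts of 1164, 1066 and 1025 (GS), 807, 885 and 893 (DM) and 772, 1642 and 868 (NO). All GS samples lay above all DM samples, and the NO samples spanned both, with replicate 2 the highest of all 9. The log2 fold change was -0.33 ± 0.23 in DM against GS (adjusted p = 0.472), -0.07 in NO against GS (95% CI -0.58 to 0.44, adjusted p = 0.862) and 0.26 in NO against DM (-0.24 to 0.77, adjusted p = 0.474). Without NO replicate 2 the value against GS was -0.40 and that against DM -0.07.

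Dll1 (chr17:15367354-15376872, minus strand), a Delta-like ligand of early mesoderm and somites, was at normalised counts of 7, 5 and 0 (GS), 52, 59 and 67 (DM) and 21, 215 and 42 (NO). Every DM and NO sample lay above every GS sample, the DM samples lay close together, and the NO samples lay on both sides of them. The GS values amount to an estimated 13 reads in all, against 208 in DM and 230 in NO, so the ratio was 12.7 in DM over GS (95% interval 7.27 to 24.3, counting error only) and 16.7 in NO over GS (9.58 to 31.9). On the log2 scale with a pseudocount of 1 the differences were 4.05 ± 0.85 (limma adjusted p = 0.0147) and 4.02 ± 0.85 (adjusted p = 0.00755). These sizes moved with single libraries. The difference of DM from GS was 3.11 without GS replicate 3, and that of NO from GS was 3.09 without GS replicate 3, 3.08 without NO replicate 2 and 4.73 without NO replicate 1. With a pseudocount of 5 they were 2.92 and 2.94. Without NO replicate 2, 62 reads remained in NO and the ratio over GS was 6.11 (95% interval 3.33 to 12.1). NO and DM differed by -0.03 (95% CI -1.88 to 1.83, adjusted p = 0.988), an interval that leaves differences of over 3-fold in either direction possible. The DM call was lost without GS replicate 3 (adjusted p = 0.0552), DM replicate 2 (0.0537) or DM replicate 3 (0.0548) and with precision weights (0.105), and the NO call with precision weights (0.0537). Without NO replicate 2 the difference from DM was -0.96 and not past the threshold. An antisense gene, A930024N18Rik, covers 20.5% of the Dll1 exons but had at most 1 normalised count.

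Dll3 (chr7:28293553-28302238, minus strand), a divergent ligand known to act against Notch within the same cell, was at normalised counts of 58, 53 and 44 (GS), 45, 47 and 66 (DM) and 49, 27 and 34 (NO). The media overlapped, and the lowest value was that of NO replicate 2. The log2 fold change was 0.02 in DM against GS (95% CI -0.63 to 0.66, adjusted p = 0.988), -0.52 in NO against GS (-1.16 to 0.13, adjusted p = 0.237) and -0.53 in NO against DM (-1.18 to 0.11, adjusted p = 0.244). Dll4 (chr2:119325784-119335962, plus strand), the Delta-like ligand best known from vessels, gave normalised counts of only 4, 0 and 7 (GS), 3, 6 and 1 (DM) and 0, 1 and 1 (NO). It did not differ detectably among the media at this depth (two-sided exact permutation test of the F statistic over all 1680 assignments, p = 0.421, the smallest possible being 0.00357).

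Among the receptors, Notch3 (chr17:32120820-32166852, minus strand), known best from the smooth muscle of vessels, gave normalised counts of 1441, 1281 and 1072 (GS), 1471, 1637 and 1752 (DM) and 2585, 7632 and 3898 (NO). The 3 NO samples lay above all others, and even the lowest of them, replicate 1, stood above the highest DM sample. The means were 1265 ± 185, 1620 ± 141 and 4705 ± 2620 (SD, n = 3). Notch3 was 3.39-fold higher in NO than in GS (log2 fold change 1.76 ± 0.30, limma adjusted p = 0.00261) and 2.63-fold higher than in DM (1.4 ± 0.30, adjusted p = 0.0134). In DM against GS the log2 fold change was 0.36 ± 0.30 (adjusted p = 0.557). Both adjusted p-values stayed under 0.05 in all 18 alternative fits. Without NO replicate 2 the log2 fold changes were 1.34 against GS (adjusted p = 0.00104) and 0.97 against DM (adjusted p = 0.0104), the second just under the 2-fold limit. An antisense gene, Gm17276, shares 6% of the Notch3 exons and had 22 to 47 normalised counts.

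Notch4 (chr17:34564268-34588503, plus strand), a receptor known mainly from endothelium, was at normalised counts of 341, 470 and 325 (GS), 739, 800 and 778 (DM) and 390, 132 and 360 (NO). DM lay above both other media with no overlap, and GS and NO overlapped. The means were 378.7 ± 79.5, 772.3 ± 30.9 and 294 ± 141 (SD, n = 3). Notch4 was 2.91-fold lower in NO than in DM (log2 fold change -1.54 ± 0.34, limma adjusted p = 0.014), and past the threshold in all 18 alternative fits, with -1.04 without NO replicate 2 (adjusted p = 0.00525). In DM against GS the log2 fold change was 1.05 ± 0.34 and the adjusted p 0.0946, so the gene was not called there. With the 6 GS and DM samples alone, whose spread is smaller, the adjusted p of the same difference was 0.0038, and without NO replicate 2 it was 0.00133. NO and GS differed by -0.49 (95% CI -1.23 to 0.24, adjusted p = 0.322), and by 0.00 without NO replicate 2.

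Notch1 (chr2:26457903-26516663, minus strand), the receptor with the widest known roles, had normalised counts of 2262, 1738 and 1555 (GS), 2135, 2450 and 2746 (DM) and 2454, 3959 and 2977 (NO). All NO samples lay above all GS samples, and DM overlapped both. The gene was 1.68-fold higher in NO than in GS (log2 fold change 0.75 ± 0.20, limma adjusted p = 0.0203), below the 2-fold limit. The adjusted p was over 0.05 without GS replicate 2 (0.0738), GS replicate 3 (0.0887), NO replicate 2 (0.0595) or NO replicate 3 (0.0534). The other differences were 0.41 ± 0.20 in DM against GS (adjusted p = 0.27) and 0.34 ± 0.20 in NO against DM (adjusted p = 0.264).

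Notch2 (chr3:98013527-98150361, plus strand), a widely expressed receptor, had normalised counts of 1821, 1668 and 1340 (GS), 1308, 1471 and 1596 (DM) and 1363, 1739 and 1431 (NO). The 3 media overlapped, and NO replicate 2 lay within the range of the GS samples. The log2 fold change was -0.14 in DM against GS (95% CI -0.48 to 0.20, adjusted p = 0.69), -0.09 in NO against GS (-0.43 to 0.25, adjusted p = 0.731) and 0.05 in NO against DM (-0.29 to 0.39, adjusted p = 0.865), so that each interval lay within a 2-fold change.

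Hes1 (chr16:30064384-30067796, plus strand), a repressor and a classic Notch target that other signals also control, was at normalised counts of 640, 552 and 605 (GS), 464, 470 and 424 (DM) and 595, 737 and 732 (NO). DM was the lowest medium with no overlap, and the GS and NO samples overlapped. The means were 599 ± 44.3, 452.7 ± 25 and 688 ± 80.6 (SD, n = 3). Hes1 was 1.51-fold higher in NO than in DM (log2 fold change 0.60 ± 0.14, limma adjusted p = 0.0198). That adjusted p was over 0.05 without DM replicate 1 (0.0557), DM replicate 2 (0.0533), DM replicate 3 (0.0542) or NO replicate 3 (0.0731) and with the 6 samples alone (0.0581), while it was 0.0488 without NO replicate 2. The difference of -0.40 ± 0.14 in DM against GS missed the threshold (adjusted p = 0.128), as did 0.20 ± 0.14 in NO against GS (adjusted p = 0.355). In mean level the order of the media for Hes1 (NO, GS, DM) was thus the reverse of that for Notch4 (DM, GS, NO), with NO and GS not distinguished for either gene.

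**Figure D2:**
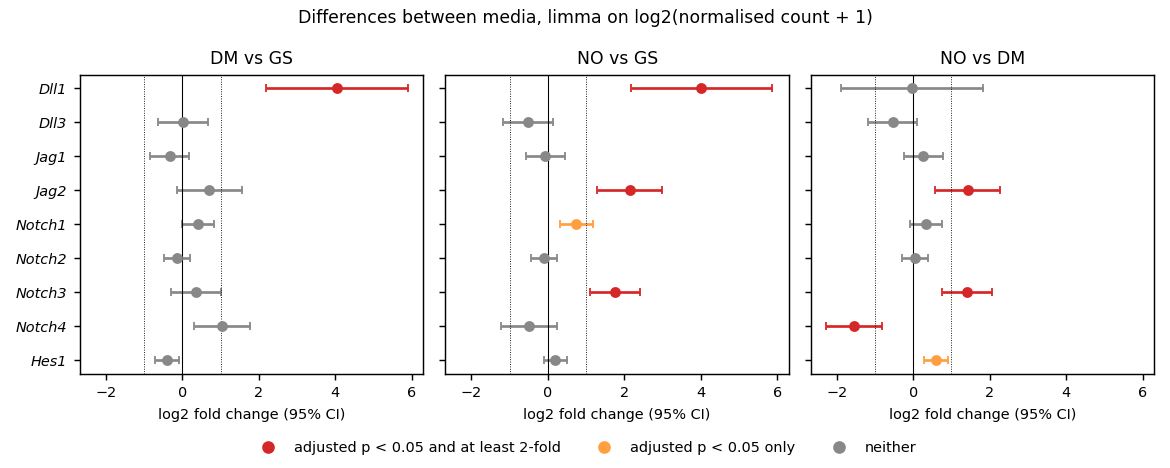
Log2 fold changes (points) with 95% confidence intervals (bars) of the 9 tested members in the 3 comparisons; dotted lines mark a 2-fold change. Red marks genes called at both limits, orange an adjusted p under 0.05 alone and grey neither. Jag2 (1.43) and Notch3 (1.4) lie to the right and Notch4 (-1.54) to the left in NO against DM.

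Counted together, 1 of the 9 tested members, Dll1, was called higher and 0 lower in DM than in GS, where 2.94% of all tested genes were called higher and 1.27% lower. Whatever the fold, an adjusted p under 0.05 was reached by 1 member and by 6.69% of genes. In NO against GS, 3 members were called higher (Notch3, Jag2 and Dll1) and 0 lower, against 10.1% and 1.64% of genes, and 4 members, with Notch1, had an adjusted p under 0.05 whatever the fold, against 20.0%. In NO against DM, 2 members were called higher (Notch3 and Jag2) and 1 lower (Notch4), against 6.78% and 1.77% of genes, and 4, with Hes1, had such an adjusted p whatever the fold, against 14.2%. The median log2 fold change of the 9 members was 0.36, 0.20 and 0.26 in the 3 comparisons in this order, and that of all tested genes 0, -0.02 and 0. The comparisons share samples and are not independent. Without GS replicate 3, DM replicate 2 or DM replicate 3, 0 members were called in DM against GS, and without NO replicate 2 there were 2, Notch4 being added. Without NO replicate 2, 1 member, Notch4, was called in NO against DM.

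The spread among the NO samples was above the median of all tested genes for 7 of the 9 members. The SD of the log2 values within NO was 1.69 for Dll1, 1.02 for Jag2, 0.87 for Notch4, 0.79 for Notch3 and 0.59 for Jag1, where the median of all tested genes was 0.31. Notch2 (0.19) and Hes1 (0.18) lay below that median. In GS and DM every member except Dll1 in GS (1.63) had an SD of at most 0.32, with medians over all genes of 0.21 and 0.24.

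Levels per kilobase of merged exons allow a rough comparison of genes with each other. The merged length joins the exons of all annotated transcripts of a gene, for example 14.232 kb for Notch1 and 8.089 kb for Notch3. It can exceed the length of the transcript that the cells make, which was not determined. The ranks of genes and the sizes of the shares below depend on these lengths. Among ligands in GS, Jag1 led at 186 ± 12.3 normalised counts per kb, followed by Jag2 at 51.5 ± 7.87 and Dll3 at 18.1 ± 2.49, with Dll1 at 0.948 ± 0.855 and Dll4 at 0.952 ± 0.912 not separable from each other. In DM the order was Jag1 (148 ± 8.15), Jag2 (85.4 ± 19.9), Dll3 (18.5 ± 4.07), Dll1 (14.1 ± 1.78) and Dll4 (0.865 ± 0.653). The means of Dll3 and Dll1 differed by about their spread, with Dll3 above Dll1 in each DM library. In NO, Jag2 (267 ± 184) and Jag1 (188 ± 81.9) could not be ranked beyond their spread, nor could Dll1 (22 ± 25.2) and Dll3 (12.9 ± 3.94). As a share of all ligand transcript per kb within each sample, a measure that does not depend on how a library was scaled, Jag1 made up 70.5, 73.3 and 73.3% in GS, 58.3, 58 and 51% in DM and 49.2, 34.7 and 38.6% in NO. Jag2 made up 21.4, 18.8 and 19.6% in GS, 29.6, 29.7 and 35.9% in DM, and 42.6, 57.9 and 55.6% in NO. The shares of both Jagged ligands thus separated the 3 media without overlap, and Jag2 exceeded Jag1 in NO replicates 2 and 3 but not in NO replicate 1.

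For the receptors in GS, the means of Notch3 (156 ± 22.9 normalised counts per kb), Notch2 (149 ± 22.8) and Notch1 (130 ± 25.8) lay within the spread between samples. Within each GS library, however, the order was Notch3, Notch2, Notch1. Notch4 (47 ± 9.86) lay below them. In DM the order was Notch3 (200 ± 17.5), Notch1 (172 ± 21.5), Notch2 (135 ± 13.4) and Notch4 (95.8 ± 3.83). The means of the first pair differed by little more than their spread, with Notch3 above Notch1 in each DM library. In NO, Notch3 reached 582 ± 324, ahead of Notch1 at 220 ± 53.7, Notch2 at 140 ± 18.6 and Notch4 at 36.5 ± 17.5. Notch3 held 32.5, 32.1 and 32.6% of the receptor transcript per kb in GS and 33.4, 33.2 and 33.1% in DM, a nearly constant share, against 47.9, 67.4 and 55.5% in NO. Notch2 made up 30.9 ± 0.394% (GS), 22.4 ± 0.19% (DM) and 15.3 ± 3.72% (NO), although its level passed no test. Notch4 contributed 9.82 ± 2.05%, 15.9 ± 1.07% and 4.52 ± 3.09%. The summed receptor level was 483 ± 71.6, 603 ± 55 and 978 ± 378 normalised counts per kb in GS, DM and NO, and the summed ligand level 258 ± 22.7, 267 ± 31.7 and 489 ± 286. These orders, shares and sums rest on the merged exon lengths, are descriptions and were not tested.

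**Figure D3:**
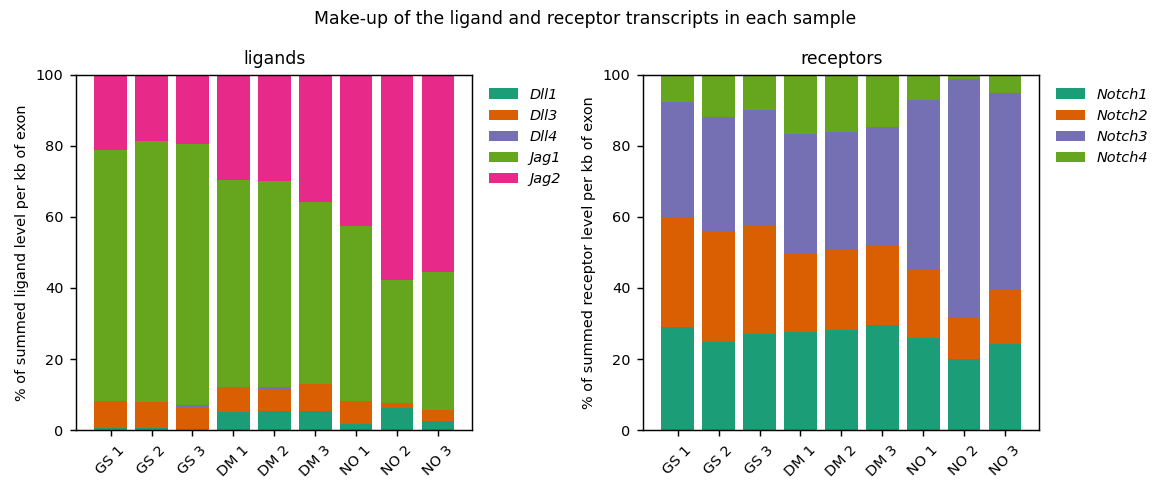
Share (%) of each ligand (left) and receptor (right) in the summed level per kb of exon, 1 stacked bar per sample. Jag1 shrinks from 70.5 to 73.3% in GS to 34.7 to 49.2% in NO while Jag2 grows, and Notch3 takes 47.9 to 67.4% of the receptor level in NO against 32.1 to 33.4% in the other media.

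The pathway around the members was read from a list of 50 genes in 6 groups, of which 47 were tested. In DM against GS 2 of them were called higher and 0 lower, where 2.94% and 1.27% of all tested genes were. In NO against GS 7 were called higher and 2 lower, against 10.1% and 1.64%, and in NO against DM 3 higher and 3 lower, against 6.78% and 1.77%. The median log2 fold changes were 0, 0.06 and 0.04. With so few genes, these counts are not read as a result about the list. The counts also moved with single libraries. In DM against GS, 1 gene was called without GS replicate 2, GS replicate 3, DM replicate 2, DM replicate 3 or NO replicate 3, and 0 without DM replicate 1. In NO against GS, 3 were called without GS replicate 1, 5 without GS replicate 2, and 2 without GS replicate 3, NO replicate 2 or NO replicate 3. In NO against DM, 1 was called without DM replicate 1, DM replicate 2 or NO replicate 3, 2 without DM replicate 3 or NO replicate 2, and 11 without NO replicate 1. All 10 genes of receptor cleavage, which include the gamma-secretase subunits, lay below the fold limit in every comparison, and 1 of them, Adam17, passed on the adjusted p alone (log2 fold change -0.54 ± 0.14 in NO against GS, adjusted p = 0.0193).

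Among the other Hes and Hey genes, 6 of 8 were tested, and they moved in both directions in NO. Hes7, the oscillating repressor of the segmentation clock, was at normalised counts of 13, 14 and 8 (GS), 16, 11 and 6 (DM) and 2, 0 and 0 (NO), an estimated 34 and 41 reads against 3. The ratio over NO was 12 for GS (95% interval 3.77 to 61.1, counting error only) and 11.5 for DM (3.67 to 58.1), and both calls of a lower level in NO held without each of the 9 libraries (limma adjusted p = 0.00498 and 0.0105 in the full fits). Hey1, a repressor related to Hes1, was at 77, 40 and 53 in GS, 61, 63 and 73 in DM and 36, 24 and 27 in NO. It was lower in NO than in DM (log2 fold change -1.17 ± 0.30, adjusted p = 0.0252), a call kept in 4 of the 9 fits without 1 library. Its difference of -0.91 ± 0.30 from GS passed on the adjusted p alone (0.0498). Heyl, of the same family, was at 2, 1 and 0 in GS, 1, 0 and 5 in DM, and 8, 114 and 24 in NO, so most of its NO reads came from replicate 2. It was called higher in NO than in GS (adjusted p = 0.0121, lost without GS replicate 3, at 0.0546) and than in DM (adjusted p = 0.0254, kept in 5 of 9 fits). Both calls were lost with precision weights (0.0602 and 0.0918), and that against DM in a fit of the 6 DM and NO samples alone (0.0581). Hes2, a further family member, was called higher in NO than in GS (10, 4 and 4 against 15, 38 and 17, log2 fold change 1.78 ± 0.49, adjusted p = 0.0256, kept in 5 of 9 fits). Hey2 and Hes6 were not called in any comparison.

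In the nuclear complex, Rbpj, which encodes the DNA-binding partner of the cleaved receptor, was at normalised counts of 1856, 2007 and 2056 (GS), 4721, 4081 and 3643 (DM) and 4152, 2438 and 3038 (NO). All DM and NO samples lay above all GS samples. It rose 2.09-fold in DM over GS (log2 fold change 1.06 ± 0.18, limma adjusted p = 0.0047), and in NO over GS it passed on the adjusted p alone (0.67 ± 0.18, adjusted p = 0.0251). The DM call was kept in 8 of the 9 fits without 1 library; without DM replicate 1 the change was under the fold limit. Maml2, a co-activator, was at 47, 21 and 32 in GS, 12, 12 and 19 in DM and 15, 12 and 8 in NO. It was lower in NO than in GS (-1.41 ± 0.41, adjusted p = 0.0321, kept in 5 of 9 fits). NO and DM overlapped, and the difference of DM from GS was not called (-1.12, adjusted p = 0.141).

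Nrarp, a target and feedback inhibitor of Notch, was at normalised counts of 105, 105 and 115 (GS), 82, 105 and 166 (DM) and 161, 716 and 262 (NO). It was called higher in NO than in GS (log2 fold change 1.52 ± 0.44, limma adjusted p = 0.0322) and than in DM (1.46 ± 0.44, adjusted p = 0.0475), although NO and DM overlapped, and the calls were kept in 4 and 1 of the 9 fits. The Fringe genes encode enzymes that add sugars to the receptor and so shift its preference between Delta-like and Jagged ligands. Lfng was at 66, 43 and 37 in GS, 76, 69 and 89 in DM and 22, 43 and 34 in NO. It was lower in NO than in DM (-1.26 ± 0.32, adjusted p = 0.0243, kept in 5 of 9 fits). NO and GS overlapped and were not distinguished (-0.55, adjusted p = 0.237). Mfng rose from 139, 74 and 78 in GS to 192, 185 and 339 in DM (1.29 ± 0.33, adjusted p = 0.0403, kept in 3 of 9 fits), and stood at 173, 87 and 133 in NO. Dlk2, which encodes a membrane protein related to the Delta-like ligands, was at 1, 5 and 4 in GS, 2, 4 and 7 in DM, and 10, 89 and 26 in NO (adjusted p = 0.0186 against GS and 0.0406 against DM, kept in 6 and 2 of 9 fits). Another 3 genes of the 13 called, Dlk1, Maml3 and Neurl1b, were each called higher in NO than in GS only, calls kept in 3, 1 and 2 of the 9 fits. Among the 8 or 9 other alternative fits that tested each gene, the calls of Rbpj, Hes7 and Hey1 were kept in all. The calls kept in the fewest of them were those of Neurl1b (3 of 8), Maml3 (4 of 8), Dlk2 against DM (4 of 8) and Nrarp against DM (4 of 9).

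**Figure D4:**
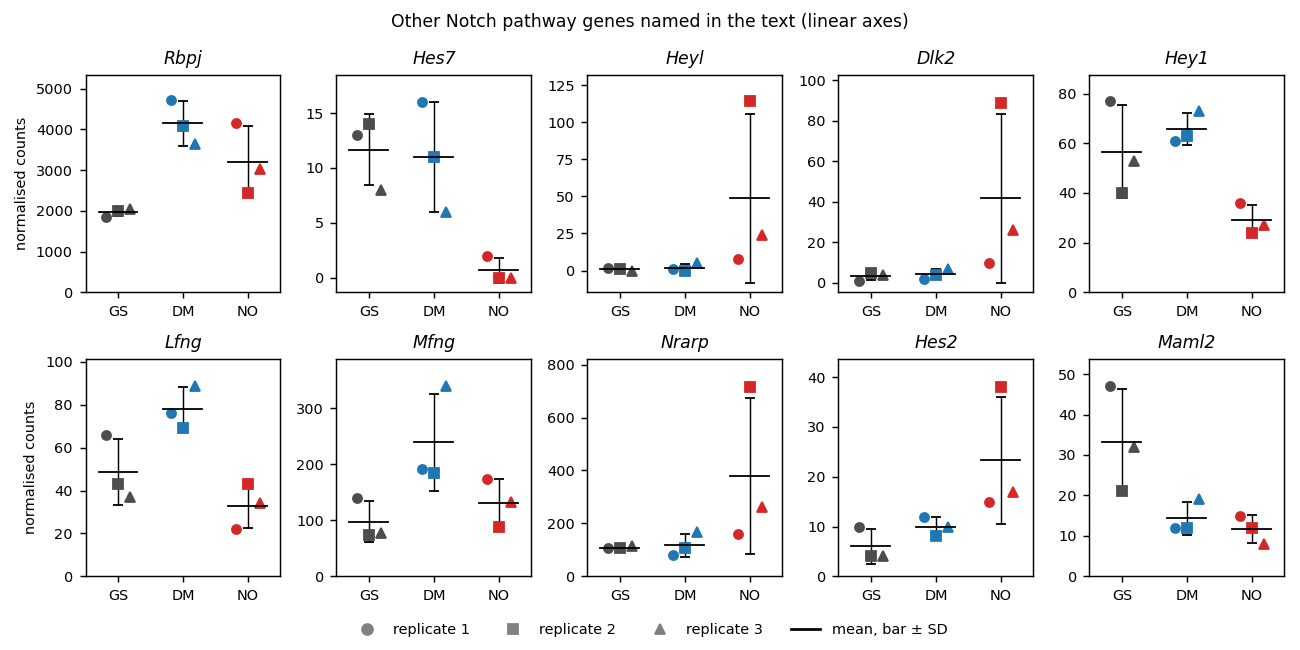
Normalised counts (linear axes) of the 10 further pathway genes named, by sample, with mean and SD as for the members. Hes7 is at 0 to 2 in NO against 6 to 16 elsewhere, while Heyl, Dlk2 and Nrarp in NO are led by replicate 2 (114, 89 and 716).

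The genes whose pattern over the 9 samples was most like that of each member past the F test were listed by Pearson r of the log2 values, among 11329 genes with a mean of at least 50, as a description. For Jag2 they were Micall1 (r = 0.997), Tmem40 (0.997) and Sh2d3c (0.996), and for Notch3 they were Itgb4 (0.995), Trim47 (0.995) and Trafd1 (0.994). Of these, Micall1 ranged over normalised counts of 45 to 66 (GS) and 75 to 120 (DM) and reached 150, 780 and 271 (NO), and so shared the high NO replicate 2. The closest to Notch4 were Dpf1 (0.989), Nacc1 (0.977) and Fbxo22 (0.976), and Dpf1 had its lowest value, 171, in that same library. Hes1 was matched most closely by Zadh2 (0.982), Gskip (0.97) and Rell1 (0.961), Dll1 by Sh3bp4 (0.991), Trerf1 (0.979) and Alas1 (0.979), and Notch1 by Fam65a (0.988), Hmha1 (0.983) and Foxj1 (0.981). All points come from the same 9 libraries, which fall into 3 media, and share the depth of each library and the standing apart of NO replicate 2.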

How the data were processed

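Total RNA-Seq of mESC in GS, DM and NO medium, 3 replicates each, was analysed, with groups and replicate numbers taken from the labels. RNA free of ribosomal RNA was read by the authors on the Ion Torrent Proton, trimmed with Reaper, aligned with STAR 2.4.0a to GRCm38 and counted over exons with featureCounts 1.4.5-p1, leaving out reads of several genes or positions. Strand use was not stated, so reads of overlapping antisense genes cannot be told apart. The deposited value is a score per gene, a read count divided by the DESeq2 size factor with the authors rounding the quotient. A count model could therefore not be used, and the depth in reads counted in genes was estimated from the regular gaps that rounding leaves. A column of row sums was not used.

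log2(value + 1) of genes with a mean over 5 was tested with limma 3.58.1 (R 4.3.3), all 9 samples in 1 fit, moderated variances with a mean trend and Benjamini-Hochberg adjustment. RNA came from 1 dish per sample, but whether the replicates were independent cultures is not given in the labels, so p-values measure only the spread between these samples, which may be technical. Same-numbered samples deviated together to a small degree between NO and DM (correlations of their deviations 0.16, 0.17 and 0.30). They did not between DM and GS (-0.18, 0.02 and -0.23) or NO and GS (-0.05, 0.05 and -0.11). Samples of unlike number were not compared in this way, so whether the number marks a pairing was not settled. The replicate block was therefore kept as an alternative fit, and its terms covered all 9 samples, GS included. All 10 members were named, and, of the wider pathway list, up to 10 called genes by smallest F test p, and the 3 genes most like each member past the F test, other than clone names. The members and lists were chosen with earlier results of these data known. Levels per kb used merged GENCODE exons of GRCm38. Alternatives were other fits, minimum means, fold limits, pseudocounts, scalings, precision weights (vooma), a replicate block, and each replicate left out.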

Additional observations from a re-analysis of the deposited data

How the results depend on the processing

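Over all alternatives, the member values of the 3 comparisons kept direction and side of the adjusted p threshold in 443 cases, lost the threshold in 21, passed it newly in 3 and changed sign in 16, none of these called. Without 1 replicate each, members called ranged from 0 to 2 in DM against GS, 3 in NO against GS and 1 to 3 in NO against DM, members past the F test from 3 to 6, and wider pathway genes called from 0 to 2, 2 to 11 and 1 to 11. With only the 6 samples compared, 2 members were called in DM against GS and 2 wider genes in NO against DM. Precision weights (vooma) gave 0 members in DM against GS and 1, 3 and 3 wider genes. No minimum mean gave 1 wider gene in DM against GS and 4 in NO against GS, and quantile normalisation 1 and 5. A minimum mean of 50, which also removed Dll3 and low genes from the test, gave 1 wider gene in NO against GS and 2 in NO against DM. A log2 fold limit of 2 left 0 members in NO against DM and 0, 3 and 3 wider genes. The causes were not tested. With the replicate block, members called stayed at 1, 3 and 3, wider genes at 2, 9 and 6, and members past the F test numbered 4, where the fit without it gave 6 and Hes1 and Notch1 were lost; it changed no other call.

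The sign changed, always far from the threshold, for Dll3 in DM against GS with quantile normalisation (-0.09; -0.16 to 0.12 without 1 replicate), for Jag1 and Notch2 in NO against GS with equal totals (0.04 and 0.02; -0.40 to 0.14 and -0.21 to 0.01 without 1 replicate), for Dll1 in NO against DM with a pseudocount of 5 (0.01) and with equal totals (0.05; -0.96 to 0.68 without 1 replicate), and for Jag1 (-0.07 to 0.47) and Notch2 (-0.06 to 0.12) in NO against DM without 1 replicate. Quantile normalisation moved the median of all genes to -0.11 in NO against GS. Depth limits Dll4, Hes7, Heyl, Dlk2 and Dll1 in GS, which rest on few reads.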
